A study of Mus musculus with 6 samples.

Results

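The genes described here encode the activin subunits, the activin receptors and the follistatin family, 10 genes of the 43432 listed in each expression table, and all 10 were found by symbol. They were chosen by name. They are the ligand subunits Inhba and Inhbb, the type II receptors Acvr2a and Acvr2b, the type I receptors Acvr1b, Acvr1c and Acvr1, and the secreted binding proteins Fst, Fstl1 and Fstl4. Their mRNA was followed by RNA-seq in cortical neurons of wild-type C57BL/6 mouse embryos taken at E16.5, while the cortex forms, with males and females pooled. The neurons were cultured for 7 days and silenced overnight with 1 μM tetrodotoxin, which blocks sodium channels, and 100 μM DL-AP5, which blocks NMDA receptors. They were then harvested without depolarization (0 h) or after 2 h or 6 h in 55 mM KCl, so that calcium enters through voltage-gated channels. The silencing was shared by the 0 h group, so every change is measured from silenced neurons and not from neurons at rest. Each of the 3 groups has 2 replicates, described in the study's methods as biological, without saying whether they came from separate litters, so p-values measure the spread between these libraries.

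Activins are dimers of inhibin beta subunits, of which Inhba encodes beta A and Inhbb encodes beta B. A dimer binds a type II receptor, which recruits and phosphorylates a type I receptor, and the type I receptor phosphorylates Smad2 and Smad3, which enter the nucleus with Smad4. Acvr1b (ALK4) and Acvr1c (ALK7) are the type I receptors of this arm, while Acvr1 (ALK2) mostly serves bone morphogenetic proteins (BMPs) and Smad1 and Smad5. Follistatin, the product of Fst, binds activins outside the cell and blocks them. In the forebrain, activin A is known as a factor that neurons make upon activity and that acts on synapses and survival.

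The upstream sequences of both ligand genes are shown with that of Fstl4, the follistatin-like gene whose mRNA rose at 6 h, because Fstl4 holds the full CRE described next and the ligand genes start the pathway. The sequences are RefSeq promoters on build GRCm38.p6, cut to the 250 bases before the start site and printed 5′ to 3′ on the strand of the gene. Capitals mark matches to the motifs searched. Inhba is on the plus strand at chr13:16011601-16011850, Inhbb on the minus strand at chr1:119422249-119422498 and Fstl4 on the plus strand at chr11:52764456-52764705.
Inhba: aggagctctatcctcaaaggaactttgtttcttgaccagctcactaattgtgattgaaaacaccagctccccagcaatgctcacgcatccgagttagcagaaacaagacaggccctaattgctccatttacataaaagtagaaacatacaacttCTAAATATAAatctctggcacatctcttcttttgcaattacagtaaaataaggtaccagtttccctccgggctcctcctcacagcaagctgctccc
Inhbb: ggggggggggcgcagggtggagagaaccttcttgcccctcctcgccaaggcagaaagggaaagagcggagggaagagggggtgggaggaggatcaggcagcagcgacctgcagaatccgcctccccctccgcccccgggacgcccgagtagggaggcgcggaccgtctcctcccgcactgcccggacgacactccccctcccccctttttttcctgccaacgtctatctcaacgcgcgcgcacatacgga
Fstl4: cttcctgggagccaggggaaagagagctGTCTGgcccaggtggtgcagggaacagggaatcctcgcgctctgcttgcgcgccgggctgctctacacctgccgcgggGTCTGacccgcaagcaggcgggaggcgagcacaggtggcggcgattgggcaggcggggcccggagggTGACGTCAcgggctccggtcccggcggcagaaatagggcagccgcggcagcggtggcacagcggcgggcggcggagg

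The motifs were searched on both strands of the 300 bases from 250 before to 50 after the start site. They were the full cyclic AMP response element (CRE) TGACGTCA, the CRE half-site TGACG, the AP-1 site TGANTCA, the Smad box CAGAC, and the CArG box and the MEF2 site by name. RefSeq promoters were found for 9 of the 10 genes, Fst being the other, and Acvr1c had 2, so 10 promoters were searched. The full CRE, known as the site bound by CREB, was found in Fstl4 alone, at position -77, and 1.79% of 32851 mouse promoters hold it. Both CRE half-sites of Fstl4, a motif held by 20.8% of promoters, lie inside that full CRE. The annotation GENCODE M21 starts Fstl4 upstream of the RefSeq start site, so the CRE of Fstl4 spans the start of that gene model. The Smad box was found in Fstl4 at -222 and -144, in Acvr2a at -188 and in Acvr2b at -233, against 49.6% of promoters. Inhba held a match to the MEF2 site at -96, a motif found in 3.19% of promoters. The AP-1 site, held by 7.81% of promoters, and the CArG box, held by 1.63%, were in none of the 10 promoters, and the Inhbb promoter held no match to any of the 6 motifs.

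Total expected counts ranged from 25959298 to 28573067 per library, and between 18767 and 19212 genes had a count. The replicates matched less closely at 2 h than at the other times. Over 12290 genes, the log2 values of replicates differed with an SD of 0.429 in the 2 h group, against 0.246 in the 0 h and 0.214 in the 6 h group. The difference followed the GC content of the genes most at 2 h (Spearman's rho -0.719), and less at 0 h (-0.392) and 6 h (-0.289). These values are across genes, which are not independent replicates. The depolarization was checked on 3 activity genes. Fos, Npas4 and Bdnf were higher at 2 h than at 0 h by log2 fold changes of 7.71, 7.64 and 4.03. The cultures carried neuronal markers at a summed level of 2698 to 3418 TPM (a share of all transcripts, corrected for their length) over 7 genes, against 362.9 to 473.6 TPM for 5 astrocyte genes, 68.8 to 98.4 TPM for 4 genes of the oligodendrocyte lineage, and 2.08 to 6.42 TPM for 4 microglial genes. The 3 endothelial genes summed to 0.43 to 1.03 TPM and the 5 genes of fibroblasts and meninges to 11.8 to 18.4 TPM, and no marker was at 0 in every library.

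TPM is corrected for transcript length, so it allows the levels of the 10 genes to be set side by side. It is a share of each library, so its changes over time can differ from those of normalized counts. At 0 h the receptors Acvr2a and Acvr1b led, at 73.7 ± 5.53 and 65.9 ± 0.438 TPM (SD, n = 2). Acvr1 followed at 32.0 ± 0.523 TPM, then Fstl1 at 23.0 ± 0.771 and Fst at 16.9 ± 0.46 TPM. The ligand subunits were lower, with Inhba at 8.7 ± 0.247 and Inhbb at 5.61 ± 0.523 TPM. Their order rests on the lengths that RSEM assigned, on average 1246 bases for Inhba and 3947 for Inhbb at 0 h. The longest listed transcript of Inhba has 6390 bases. In normalized counts, which are not corrected for length, Inhbb was above Inhba at 0 h (313.1 and 153.2). Fstl4 stood at 4.38 ± 0.276, Acvr2b at 2.95 ± 0.339 and Acvr1c at 0.735 ± 0.0778 TPM. No neighbours in this order overlapped between libraries at 0 h. In silenced neurons the type II receptor mRNA was mostly Acvr2a and the activin type I receptor mRNA mostly Acvr1b.

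After 2 h the order of the most abundant genes was kept, with Acvr2a at 48.9 ± 10.1 TPM, Acvr1b at 37.7 ± 2.9, Acvr1 at 19.4 ± 0.0636, Fstl1 at 17.7 ± 0.375 and Fst at 14.7 ± 0.269. Below them lay Inhba at 5.12 ± 1.27 TPM, Fstl4 at 3.71 ± 0.304, Inhbb at 2.23 ± 0.184, Acvr2b at 1.94 ± 0.841 and Acvr1c at 0.335 ± 0.0778, and of the neighbours only Inhbb and Acvr2b overlapped. After 6 h Acvr2a led at 57.8 ± 0.813 TPM, and Acvr1 at 40.7 ± 2.36 stood above Acvr1b at 31.1 ± 2.81. Fstl1 was at 17.7 ± 1.25 TPM and Fstl4, at 10.5 ± 1.07, was above Fst at 8.2 ± 0.311 and Inhba at 8.03 ± 0.389, which overlapped. Inhbb was at 5.0 ± 0.0212 TPM, and Acvr2b at 2.51 ± 0.707 overlapped with Acvr1c at 2.19 ± 0.375.

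**Figure D1:**
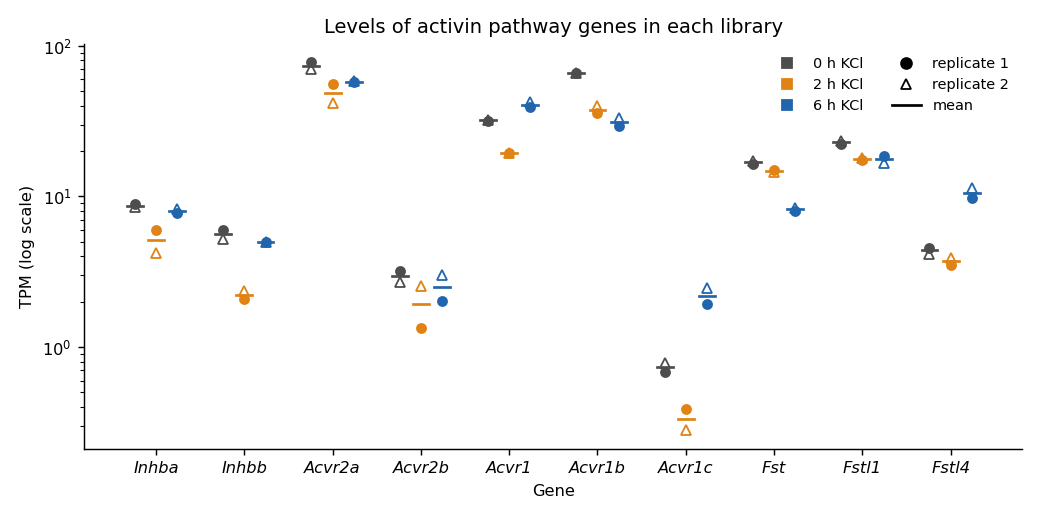
TPM (log scale) of the 10 genes in each of the 6 libraries, with filled circles for replicate 1, open triangles for replicate 2 and bars for the group means. Acvr2a and Acvr1b lead at 0 h at 73.7 and 65.9 TPM, while Acvr1c goes from 0.735 TPM at 0 h to 2.19 TPM at 6 h.

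To find which members of the pathway responded to depolarization, each pair of time points was compared with DESeq2. A gene is said to have risen or fallen if the adjusted p reached 0.05 or less, and it was called if the log2 fold change was also beyond 1 in either direction. At 2 h against 0 h, 0 of the 10 genes were called higher, where 3.62% of all genes tested were, and 2 were called lower, Inhbb and Acvr1c, where 5.94% of all genes tested were. In that comparison 4 of the 10 genes reached the adjusted p, all downward, against 26.5% of all genes in either direction. All 10 had a log2 fold change below 0, although those of Fst and Fstl4 were near 0 and changed sign when 1 of the 0 h libraries was left out. The median was -0.50, beside 0.015 over all genes tested. The summed neuronal markers were 3418 and 3370 TPM before KCl, 2829 and 2698 after 2 h, and 3029 and 3167 after 6 h, lowest in both 2 h libraries. Tubb3, the largest part of that sum at 0 h, averaged 1659 TPM at 0 h, 911.5 at 2 h and 730.1 at 6 h. Of the 7 neuronal genes, Tubb3 fell by 2 h (-0.69, adjusted p 4.93e-06), while Gad1 (0.62), Snap25 (0.48), Rbfox3 (0.46) and Gad2 (0.43) rose, and their part in the changes of the activin genes was not tested. At 6 h against 0 h, 2 genes were called higher, Acvr1c and Fstl4, against 9.1% of all genes, and 0 lower, against 10.2%. Here 6 of the 10 reached the adjusted p, 3 in each direction, against 45.3% of all genes, and the median was -0.02, beside 0.000 over all genes. At 6 h against 2 h, 4 genes were called higher, Inhbb, Acvr1, Acvr1c and Fstl4, against 10.1% of all genes, and 0 lower, against 8.02%. The adjusted p was reached by 4 genes upward and 2 downward, where 45.3% of all genes reached it. The median was 0.50, beside -0.005 over all genes. Of the cell-type markers in this comparison, Gad2 (0.93), Gad1 (0.79), Mbp (0.67) and Snap25 (0.42) rose, while Rbfox3 (-0.78), Slc17a7 (-0.59), Aldh1l1 (-0.44) and Tubb3 (-0.32) fell, with 0 called, and their part in the members' changes was not tested. The comparisons share libraries, so the low values at 2 h enter both the first and the third. In bulk cultures, fewer cells of a type and less RNA per cell cannot be told apart.

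**Figure D2:**
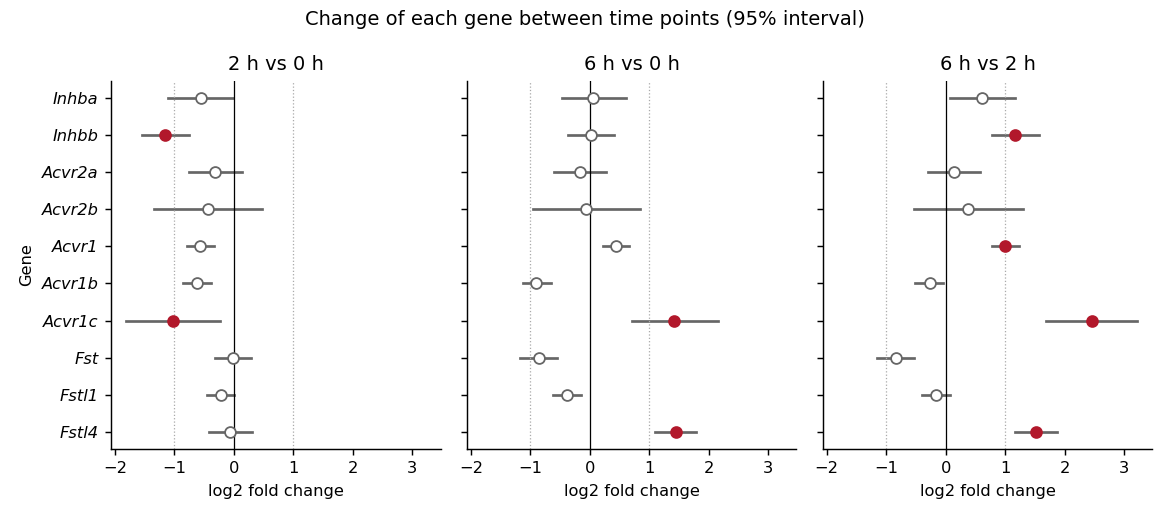
Log2 fold change of each gene in the 3 comparisons, with 95% intervals as lines, filled points for genes called and dotted lines at a log2 fold change of -1 and 1. All 10 points lie left of 0 at 2 h vs 0 h, and Acvr1c has the largest change, 2.45, at 6 h vs 2 h.

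Among the ligands, Inhbb fell at 2 h and was within its 0 h range again at 6 h, while Inhba was also lowest at 2 h, without reaching the adjusted p in the DESeq2 fit. Inhbb (ENSMUSG00000037035, chr1:119415465-119422248, minus strand) stood at 335.6 and 290.7 normalized counts before KCl, 133.8 and 147.8 after 2 h, and 321.0 and 313.0 after 6 h. Both 2 h libraries were below all the others, and the 0 h and 6 h libraries overlapped. The log2 fold change was -1.15 at 2 h vs 0 h (adjusted p 2.10e-07, SE 0.20) and 1.17 at 6 h vs 2 h (adjusted p 7.83e-08, SE 0.20), which left Inhbb at 45.0% of its 0 h level at 2 h. Between 0 h and 6 h it was 0.02 (adjusted p 0.952, SE 0.19), with a 95% interval from -0.36 to 0.40 and a sign that changed with the size factors.

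Inhba (ENSMUSG00000041324, chr13:16011851-16031621, plus strand), which encodes the subunit of activin A, stood at 158.0 and 148.3 normalized counts before KCl, 123.8 and 84.8 after 2 h, and 155.2 and 164.6 after 6 h. Both 2 h libraries were the lowest, but they differed 1.46-fold from each other, and 1.35-fold after correction for GC content. The log2 fold change was -0.55 at 2 h vs 0 h (adjusted p 0.137, SE 0.28) and 0.61 at 6 h vs 2 h (adjusted p 0.0606, SE 0.28). The test of Inhba depended on the processing. The change by 2 h reached the adjusted p with library totals as size factors (-0.72, adjusted p 0.0337) and with limma on log2(TPM + 1) (-0.68, adjusted p 0.0269), and it was -0.32 without 2 h replicate 2 (adjusted p 0.57). The change from 2 h to 6 h reached it without 2 h replicate 1 (0.92, adjusted p 0.0244), with a filter at a mean count of 10 (0.61, adjusted p 0.0449) and with limma on log2(TPM + 1) (0.58, adjusted p 0.0293), and it was 0.38 without 2 h replicate 2 (adjusted p 0.396). Its change from 0 h to 6 h was 0.06 (adjusted p 0.881, SE 0.27), with a 95% interval from -0.47 to 0.60, and with library totals as size factors it was -0.18. The ratio of Inhba to Inhbb in TPM was 1.48 and 1.63 before KCl, 2.86 and 1.79 after 2 h, and 1.54 and 1.66 after 6 h, with both 2 h libraries above the rest. The size of this ratio rests on the length that RSEM assigned to Inhba.

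The type I receptors went different ways. Acvr1c rose and Acvr1b fell by 6 h, and Acvr1 fell by 2 h and rose between 2 h and 6 h. Acvr1c (ENSMUSG00000026834, chr2:58267453-58357895, minus strand), the ALK7 gene, stood at 85.2 and 69.1 normalized counts before KCl, 51.9 and 23.8 after 2 h, and 192.6 and 221.6 after 6 h. The 3 groups did not overlap, although the 2 h replicates differed 2.18-fold. Its log2 fold change was 1.42 at 6 h vs 0 h (adjusted p 0.000452, SE 0.37) and 2.45 at 6 h vs 2 h (adjusted p 3.90e-09, SE 0.39), a 5.46-fold increase. The fall at 2 h was -1.02 (adjusted p 0.0408, SE 0.40) and rested on few counts. That fall was not called without 1 library in 5 of 6 cases: it was -0.86 without 0 h replicate 1 (adjusted p 0.382), -1.16 without 0 h replicate 2 (0.158), -0.59 without 2 h replicate 2 (0.329), -1.02 without 6 h replicate 1 (0.139) and -1.02 without 6 h replicate 2 (0.147). Without 2 h replicate 1 it was -1.71 (adjusted p 0.00176). The rise at 6 h vs 0 h was not called without 6 h replicate 2 (1.32, adjusted p 0.0635), nor with limma on log2(TPM + 1), where it was 0.88 and short of the fold threshold, while that from 2 h to 6 h was called in 18 of 18 settings, with values from 1.26, with limma on log2(TPM + 1), to 3.13, without 2 h replicate 1. Without 2 h replicate 2 that rise was 2.01.

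Acvr1b (ENSMUSG00000000532, chr15:101174067-101213684, plus strand), the ALK4 gene and the main activin type I receptor by level, stood at 3823 and 3819 normalized counts before KCl, 2368 and 2594 after 2 h, and 1938 and 2163 after 6 h. Every library after KCl was below both 0 h libraries. It fell to 64.9% of the 0 h level at 2 h (log2 fold change -0.62, adjusted p 2.10e-06, SE 0.12) and to 53.7% at 6 h (-0.90, adjusted p 6.60e-13, SE 0.12), short of the fold threshold. The step from 2 h to 6 h was -0.27 (adjusted p 0.0488, SE 0.12), and it missed the adjusted p in the fits without 0 h replicate 1, 0 h replicate 2, 2 h replicate 2, 6 h replicate 1 or 6 h replicate 2 (adjusted p 0.123 to 0.44). It also missed it with the replicate block (adjusted p 0.0572), with GC correction (adjusted p 0.06) and with both (adjusted p 0.118).

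Acvr1 (ENSMUSG00000026836, chr2:58388644-58567157, minus strand), the ALK2 gene, stood at 1145 and 1149 normalized counts before KCl, 780.9 and 769.2 after 2 h, and 1549 and 1560 after 6 h. The groups were far apart beside the spread within them. It fell by 0.57 on the log2 scale at 2 h (adjusted p 8.94e-06, SE 0.11), and at 6 h it was above 0 h by 0.44 (adjusted p 0.000329, SE 0.11). The fall was -0.56 without 0 h replicate 2 (adjusted p 0.0507). The 6 h vs 0 h change was 0.19 with library totals as size factors (adjusted p 0.194), and it missed the adjusted p without 0 h replicate 1 (0.0828), 0 h replicate 2 (0.0823), 6 h replicate 1 (0.0785) or 6 h replicate 2 (0.0853), at 0.43 to 0.44. The rise from 2 h to 6 h was 1.00 (adjusted p 3.58e-17, SE 0.11), at the edge of the fold threshold, and it was called in 8 of 18 settings. It was not called without 0 h replicate 1, 0 h replicate 2 or 6 h replicate 2, with a log2 fold change of 1.00 in each, or with the edgeR test (0.97).

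The relative levels of these receptors also differed by 6 h. The ratio of Acvr1b to Acvr1 in TPM was 2.07 and 2.04 before KCl, 1.84 and 2.05 after 2 h, and 0.747 and 0.781 after 6 h, so that Acvr1 passed Acvr1b. The ratio of Acvr1b to Acvr1c went from 96.4 and 83.8 before KCl and 91.5 and 142.1 after 2 h to 15.1 and 13.5 after 6 h. The ratios were not tested.

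**Figure D3:**
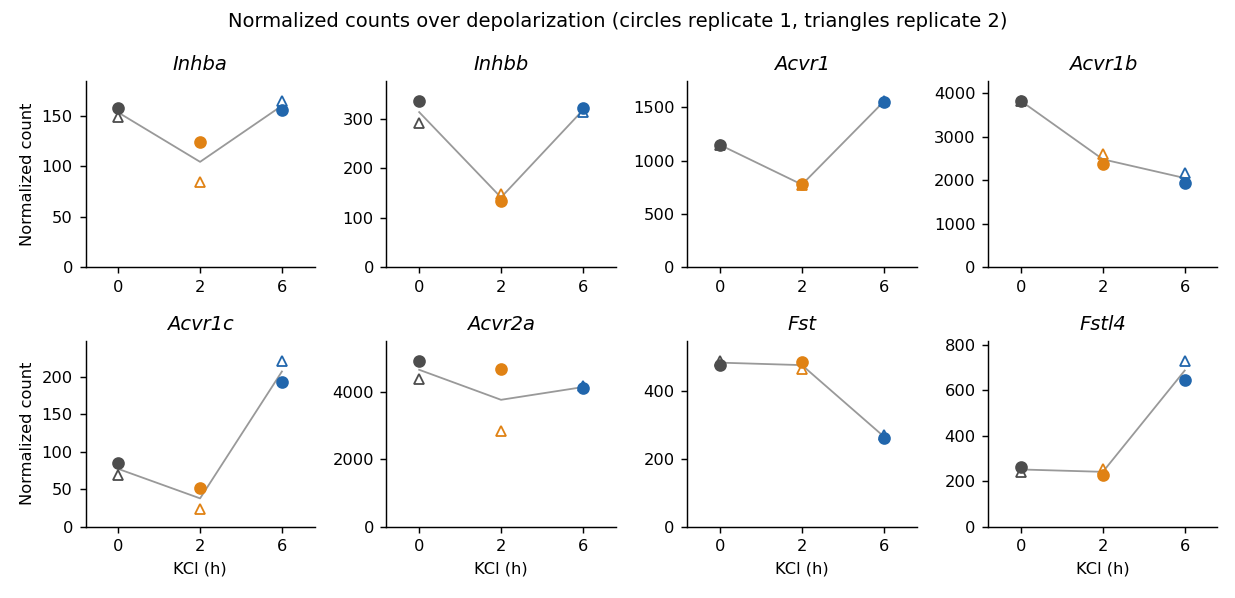
Normalized counts of 8 of the genes in each library at 0, 2 and 6 h of KCl, with axes from 0, lines through the group means, filled circles for replicate 1 and open triangles for replicate 2. Inhbb and Acvr1 are lowest at 2 h, Acvr1c and Fstl4 are highest at 6 h, and the 2 h replicates of Acvr2a lie apart at 4676 and 2841.

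Neither type II receptor reached the adjusted p in the DESeq2 fit of the 6 libraries, but for Acvr2a this depended on 1 library and on the correction for GC content. Acvr2a (ENSMUSG00000052155, chr2:48814109-48903269, plus strand), the more abundant of the pair, stood at 4919 and 4376 normalized counts before KCl, 4676 and 2841 after 2 h, and 4110 and 4159 after 6 h. The 2 h replicates differed 1.65-fold and spanned all the other libraries but 0 h replicate 1, so no order of the groups can be read from them. The log2 fold changes were -0.31 (adjusted p 0.362, SE 0.23) at 2 h vs 0 h, -0.17 (adjusted p 0.581, SE 0.23) at 6 h vs 0 h and 0.14 (adjusted p 0.656, SE 0.23) at 6 h vs 2 h. With correction for GC content the 2 h replicates differed 1.11-fold, at 4431 and 4004, the 0 h values were 4952 and 4822 and the 6 h values 3521 and 3687. With that correction Acvr2a changed by -0.21 (adjusted p 0.0419), -0.44 (adjusted p 1.35e-06) and -0.23 (adjusted p 0.0193) in the same comparisons, in that order. Without 2 h replicate 1, and with no such correction, the first step, from 0 h to 2 h, was -0.72 (adjusted p 1.20e-12), followed by 0.55 from 2 h to 6 h (adjusted p 5.92e-08). Without 2 h replicate 2 these values were -0.01 (adjusted p 0.97) and -0.16 (adjusted p 0.151). It also reached the adjusted p at 2 h vs 0 h with limma on log2(TPM + 1) (-0.60, adjusted p 0.0269) and at 6 h vs 0 h with only the libraries compared (-0.18, adjusted p 0.0363). Acvr2a has a GC content of 41.1%, shares exon sequence with Orc4 on the opposite strand, and had counts that were not whole in 6 libraries, so its counts are uncertain.

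Acvr2b (ENSMUSG00000061393, chr9:119402118-119434995, plus strand) stood at 63.0 and 53.1 normalized counts before KCl, 30.0 and 55.8 after 2 h, and 44.9 and 66.7 after 6 h. The groups overlapped throughout. Its log2 fold changes were -0.44 (SE 0.46) at 2 h vs 0 h, -0.06 (SE 0.46) at 6 h vs 0 h and 0.38 (SE 0.47) at 6 h vs 2 h, with adjusted p of 0.569, 0.937 and 0.538. The 95% interval at 6 h vs 0 h ran from -0.96 to 0.84, which does not exclude a change of nearly 2-fold. In TPM, Acvr2a exceeded Acvr2b 24.3-fold and 25.8-fold in the 0 h libraries, and 28.5-fold and 19.4-fold in the 6 h libraries. The gap was widest in 2 h replicate 1, at 41.8-fold, and narrowest in 2 h replicate 2.

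Of the binding proteins, Fst fell and Fstl4 rose between 2 h and 6 h, and Fstl1 fell less by 6 h. Fst (ENSMUSG00000021765, chr13:114452290-114458951, minus strand), the activin antagonist, stood at 477.6 and 489.6 normalized counts before KCl, 486.3 and 466.3 after 2 h, and 261.1 and 271.0 after 6 h. The 0 h and 2 h libraries overlapped and both 6 h libraries were below them. The log2 fold change was -0.86 at 6 h vs 0 h (adjusted p 3.26e-07, SE 0.16) and -0.84 at 6 h vs 2 h (adjusted p 9.02e-07, SE 0.16), to 55.0% of the 0 h level, without reaching the fold threshold. Its change by 2 h was -0.02 (adjusted p 0.949, SE 0.15), with a 95% interval from -0.32 to 0.28.

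Fstl4 (ENSMUSG00000036264, chr11:52764634-53188538, plus strand), a member of the follistatin-like family, stood at 264.5 and 239.3 normalized counts before KCl, 229.7 and 253.3 after 2 h, and 643.1 and 730.3 after 6 h. Both 6 h libraries were far above the other libraries, which overlapped. It rose 2.73-fold at 6 h vs 0 h (log2 fold change 1.45, adjusted p 3.36e-15, SE 0.18) and 2.84-fold at 6 h vs 2 h (1.51, adjusted p 6.24e-16, SE 0.18). At 2 h vs 0 h the change was -0.06 (adjusted p 0.871, SE 0.18). The promoter shown above for Fstl4 is the one with the full CRE, and the part of that site in the rise was not tested.

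Fstl1 (ENSMUSG00000022816, chr16:37776873-37836514, plus strand), a secreted glycoprotein that binds BMPs and other ligands of the family, stood at 1069 and 1109 normalized counts before KCl, 924.7 and 947.0 after 2 h, and 834.6 and 833.6 after 6 h. The groups did not overlap. It fell by 0.38 on the log2 scale at 6 h vs 0 h (adjusted p 0.00399, SE 0.12), with -0.22 for 2 h vs 0 h (adjusted p 0.177, SE 0.12) and -0.17 at 6 h vs 2 h (adjusted p 0.269, SE 0.12). The fall by 6 h missed the adjusted p without 0 h replicate 1 (0.128), 0 h replicate 2 (0.201), 6 h replicate 1 (0.146) or 6 h replicate 2 (0.151), at -0.41 to -0.36. At 2 h vs 0 h it reached the adjusted p with library totals (-0.39, adjusted p 0.0151) and with limma on log2(TPM + 1) (-0.36, adjusted p 0.0399). Counts of Fstl1 were not whole in 5 libraries, so they are uncertain. The astrocyte markers, which were 433.6 and 473.6 TPM in sum at 0 h, were 372.2 and 362.9 TPM at 6 h, and 0 of their 5 genes were called. By the adjusted p, 2 of the 5 fell, Gfap by 0.63 (adjusted p 0.0216) and Aldh1l1 by 0.41 (adjusted p 0.00259). Slc1a3, the largest part of the sum, averaged 314.5 TPM at 0 h and 272.4 TPM at 6 h. In the DESeq2 fit its log2 fold change was -0.03 (adjusted p 0.851). Among the 7 neuronal markers at 6 h vs 0 h, 4 rose by the adjusted p, Gad1 (1.41) and Gad2 (1.36), which were called, Snap25 (0.89) and Map2 (0.42), and 2 fell, Tubb3 (-1.01), which was called, and Slc17a7 (-0.44). Of the 4 genes of the oligodendrocyte lineage, Olig2 rose by 0.51 (adjusted p 0.00123). At 6 h vs 0 h Col1a2 was called higher of the 5 genes of fibroblasts and meninges. Of the 3 endothelial genes Pecam1 was called higher than before KCl both after 2 h (1.45, adjusted p 0.00829) and after 6 h (1.16, adjusted p 0.0291). The part of these markers in the changes at 2 h and 6 h was not tested.

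The level of the ligands beside their antagonist was lowest at 2 h and highest at 6 h. The sum of Inhba and Inhbb over Fst in TPM was 0.898 and 0.8 before KCl, 0.545 and 0.454 after 2 h, and 1.6 and 1.58 after 6 h, with no overlap between the groups. For Inhba alone the ratio to Fst was 0.536 and 0.496, then 0.404 and 0.291, then 0.971 and 0.986. These ratios are of mRNA, rest on the length that RSEM assigned to Inhba, and were not tested.

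**Figure D4:**
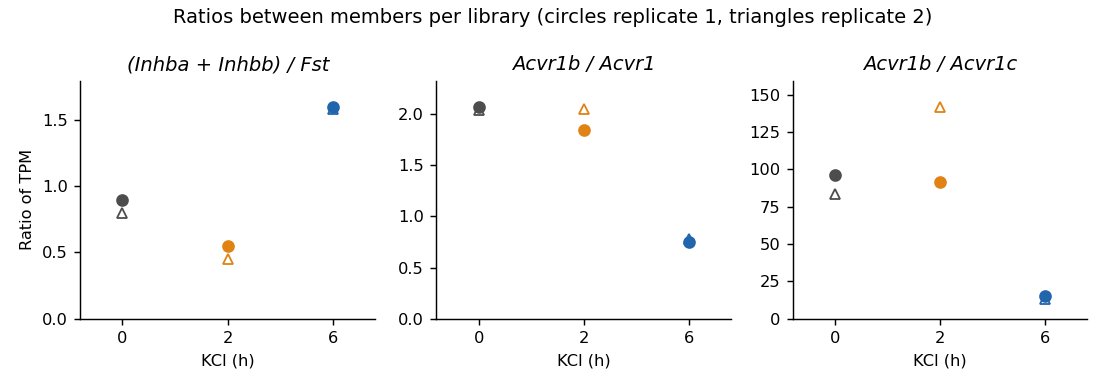
Ratios of TPM between members in each library at 0, 2 and 6 h of KCl, with axes from 0, filled circles for replicate 1 and open triangles for replicate 2. The ratio of both ligand subunits to Fst is near 1.6 in both 6 h libraries, against 0.898 and 0.8 at 0 h, and the ratio of Acvr1b to Acvr1 is below 1 at 6 h only.

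The other genes of the pathway were taken from a list of 43, of which 42 were in the tables, 41 had a count and 32 had an adjusted p. At 2 h vs 0 h, 5 were called higher and 3 lower, beside 3.62% and 5.94% of all genes tested. The adjusted p was reached by 11 upward and 6 downward, beside 26.5% of all genes in either direction, and the median log2 fold change was 0.16, beside 0.015. Skil, which encodes the Smad corepressor SnoN, rose by 1.32, from 1924 and 1869 to 5780 and 3712 normalized counts. Bambi, a decoy receptor without a kinase domain, rose by 1.47, from 79.9 and 66.6 to 196.7 and 208.8. Wfikkn2, which binds myostatin, rose by 2.10 from 6.21 and 5.90 to 27.0 and 24.8, and Wfikkn1 stood at 0.0 and 1.69 at 0 h and at 9.99 and 21.7 at 2 h. Mstn, the ligand myostatin, rose by 1.36. The 3 genes called lower were Smad3 (-1.03, from 399.5 and 480.4 to 191.7 and 240.9), Smad9 (-1.04) and Fstl3 (-3.09, from 13.3 and 21.1 to 3.99 and 0.0), a follistatin-like antagonist of activin. Downward by the adjusted p without a call were Bmpr1b (-0.93, adjusted p 6.70e-05), Nedd4l, a ubiquitin ligase (-0.56, adjusted p 1.65e-06), and Smad5 (-0.51, adjusted p 0.000321). Upward without a call were Inha (0.99), Smad7 (0.98), Ppm1a (0.43), Smurf2 (0.43), Smad2 (0.43) and Ski (0.34). Skil was not called without 2 h replicate 1 (0.96), nor Smad3 without 0 h replicate 2 (-0.88) or 2 h replicate 1 (-0.88), nor Smad9 without 0 h replicate 1 (-0.86). Mstn, Wfikkn1, Wfikkn2 and Fstl3 had under 80 normalized counts per library, and their calls were unstable. That of Wfikkn2 was lost without any 1 of the 6 libraries (2.02 to 2.14), and that of Fstl3 without any but 2 h replicate 1 (-3.38 to -2.12 where lost), which leaves a 2 h count of 0. Mstn was not called without 0 h replicate 1, 0 h replicate 2, 2 h replicate 1 or 6 h replicate 1 (1.16 to 1.43), and Wfikkn1 not without 0 h replicate 1 or 6 h replicate 1, with no adjusted p without 0 h replicate 2 or 2 h replicate 2.

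By 6 h, 15 genes of the list had risen from 0 h and 1 had fallen by the adjusted p, with a median of 0.58 beside 0.000 over all genes tested, and 2 were called, both higher. Of all genes tested, 45.3% reached the adjusted p, 9.1% were called higher and 10.2% lower. Bmpr1a, a BMP type I receptor, rose by 1.05 (adjusted p 3.52e-06, SE 0.21) and Mstn by 1.65. Bmpr1a was called in 12 of 18 settings and was short of the fold threshold with library totals (0.81), GC correction (0.98) and limma on log2(TPM + 1) (0.77). Mstn was not called without 6 h replicate 1 (1.52, adjusted p 0.0518). Smad2 rose by 0.71 (adjusted p 2.60e-09, SE 0.11) and Smad4 by 0.68 (adjusted p 3.39e-09, SE 0.11), while Smad3 stood at -0.08 (adjusted p 0.789, SE 0.21). Gdf11, a ligand that uses activin receptors, rose by 0.98 (adjusted p 7.82e-14, SE 0.13). Between 2 h and 6 h, 18 genes were higher and 3 lower by the adjusted p, with a median of 0.45, and 3 were called higher and 1 lower. Over all genes tested the shares were 45.3% by the adjusted p, 10.1% called higher and 8.02% called lower, with a median of -0.005. The former were Smad9 (1.24, adjusted p 0.000202), Tgif1 (1.08) and Fstl3. Smad9 was not called without 6 h replicate 1 (1.05, adjusted p 0.0599), Tgif1 not without any 1 of the 6 libraries (0.95 to 1.19), and Fstl3 not without any library but 2 h replicate 1. Without that library the only 2 h count of Fstl3 is 0, so that fit gives no fold.

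The gene called lower was Inha, the inhibin alpha subunit, which pairs with a beta subunit into inhibin, an antagonist of activin. It stood at 142.9 and 140.7 normalized counts before KCl, 257.6 and 306.0 after 2 h, and 68.5 and 75.3 after 6 h. It rose at 2 h by 0.99 (adjusted p 0.000151, SE 0.23) and by 6 h fell below the 0 h level by 0.98 (adjusted p 0.000437, SE 0.25), both just short of the fold threshold. The drop from 2 h to 6 h was -1.97 (adjusted p 4.67e-14, SE 0.25) and was called in 18 of 18 settings. Inha was highest at the time when Inhbb was lowest.

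**Figure D5:**
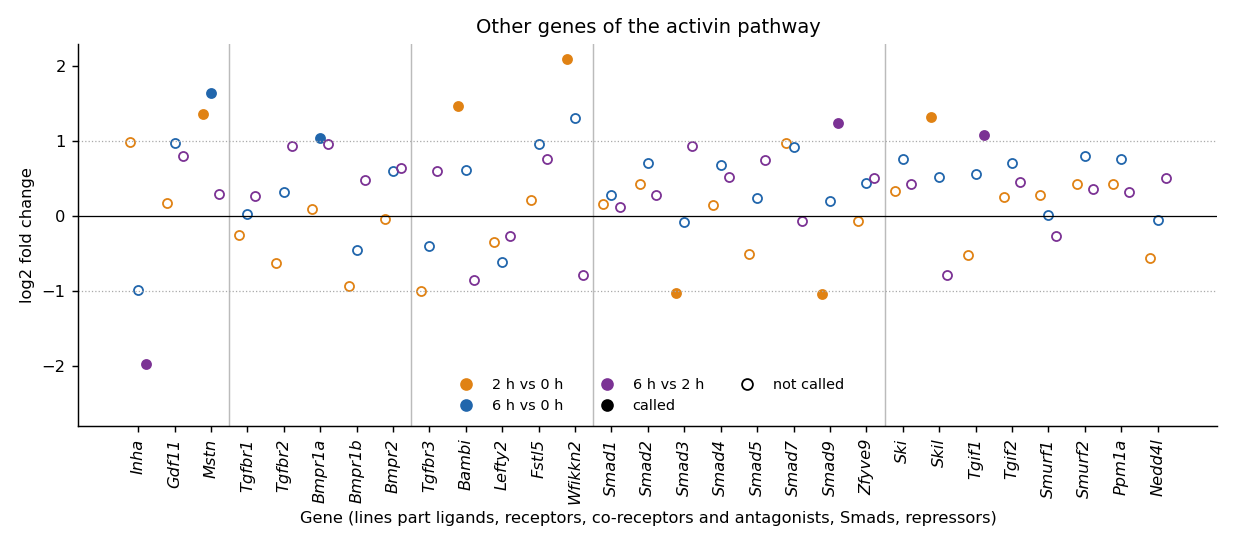
Log2 fold changes of 29 other genes of the pathway in the 3 comparisons, with filled points for genes called, dotted lines at -1 and 1, and vertical lines between groups of the list; genes at the count floor or without an adjusted p in all comparisons, and Fstl3, are left out. Inha has the lowest point, -1.97 at 6 h vs 2 h, and Wfikkn2 the highest, 2.10 at 2 h vs 0 h.

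The genes whose course over the 6 libraries was most like that of a called member were found by Euclidean distance between log2(normalized count + 1) values taken from each gene's 0 h mean, over 11183 genes that averaged at least 100 normalized counts. For Inhbb these were Tmem110 at a distance of 0.12, Cstf1 at 0.21 and Zfp867 at 0.24. For Acvr1 they were Abhd2 at 0.06, Zfp940 at 0.10 and Tacc1 at 0.10. For Fstl4 they were Srrm4 at 0.22, Slc7a8 at 0.24 and Sh3rf3 at 0.24. Acvr1c had no neighbour as near, with Fastkd5 at 0.46, Kbtbd3 at 0.52 and Ano3 at 0.55. The distances are a description of 6 libraries that share preparation and depth.

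The effective length, a mean over a gene's transcripts weighted by their abundance, was tested with limma as a readout of transcript mix. Of the 9 members with enough counts, 0 were called at 2 h vs 0 h, where 0.0356% of all genes were, 0 at 6 h vs 0 h, against 0.525%, and 0 at 6 h vs 2 h, against 0.116%. An unadjusted p below 0.05 was found for 0, 2 and 1 of the 9 genes. The nearest to a change was Fstl1, with effective lengths of 3359 and 3347 bases before KCl, 3269 and 3310 after 2 h, and 2762 and 3106 after 6 h. Its log2 ratio at 6 h vs 0 h was -0.20 (SE 0.06, limma adjusted p 0.319), and the 6 h replicates differed from each other by more than those of the other groups.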

How the data were processed

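RNA-seq was analysed in 6 libraries of 3 groups (0 h, 2 h and 6 h of KCl), 2 per group, with groups and replicate numbers read from the sample titles. Per the study's methods, stranded poly(A) libraries were sequenced as 150 bp pairs and trimmed, and per the submitters' processing notes Bowtie2 2.2.9 and RSEM 1.3.0 were used with mm10; the strand setting and the annotation release are not given in the sources used here. The authors deposited expected counts, which RSEM estimates by sharing reads among genes, so that some are not whole; they carry no normalization. The deposited TPM values had been corrected for transcript length by RSEM. The authors also deposited effective lengths, in bases. The deposited FPKM column was not used.

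Expected counts were rounded, and the 22515 genes with a count entered DESeq2 1.42.0, run in R 4.3.3 (Wald test, all 6 libraries in 1 fit, group as the only term, Benjamini-Hochberg adjustment). Calls needed an adjusted p no higher than 0.05 and a log2 fold change beyond 1 either way, as in the study's methods. Log2 effective lengths were tested with limma 3.58.1 over genes averaging 100 counts or more, and called at the same adjusted p with a log2 ratio of 0.2 or more in size. Normalized counts are expected counts over DESeq2 size factors. Groups in which no library passed 3 counts for a gene were taken as at the floor. No molecular identifiers were used, so such floors cover counting error only. Symbols were matched for 42462 of 43432 identifiers; positions are 1-based on GRCm38 from GENCODE M21, which may be another release than the authors used, and promoters came from RefSeq on GRCm38.p6. The alternatives were edgeR 4.0.16, other size factors, low-count filters, a test against a fold of 2, a GC correction, a replicate block, leaving out each library, and limma on log2(TPM + 1) and log2(TPM + 0.1). The fits were tested on simulated data. Python 3.11.15, pandas 2.3.3 and matplotlib 3.10.9 were used.

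The genes named are the 10 members, the pathway genes called in any comparison or named within their list, the 3 genes nearest in course to each called member (Inhba was not called and has none), and Fos, Npas4 and Bdnf. Outside this rule, cell-type markers that reached the adjusted p were named after their values were seen, as was Slc1a3, and Orc4 because it overlaps Acvr2a. The members and lists were chosen with earlier results of these data known.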

Additional observations from a re-analysis of the deposited data

How the results depend on the processing

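Under 17 alternatives, the member fold changes kept their direction and side of the threshold in 457 cases, lost the call in 29, gained it in 5 and changed sign in 19. The count of members called at 2 h vs 0 h was 1 with edgeR, with only the libraries compared, with GC correction and with limma on log2(TPM + 1) or log2(TPM + 0.1), and 0 in the test against a fold change of 2. At 6 h vs 0 h it was 4 with library totals or log2(TPM + 0.1), which added Acvr1b (-1.14 and -1.08) and Fst (-1.11 and -1.03), and 0 in the test against a fold of 2. With log2(TPM + 1) it was 2, with Acvr1b (-1.06) in place of Acvr1c (0.88). Over genes averaging at least 10 normalized counts, the median log2 fold change was 0.011, -0.004 and 0.005 in the 3 comparisons of the main fit. Library totals moved it to -0.156, -0.251 and -0.075. Among those that also averaged 1 TPM or more, limma gave -0.153, -0.144 and 0.03 on log2(TPM + 1). On log2(TPM + 0.1) it gave -0.167, -0.155 and 0.033. The members' changes in these settings were not corrected for such shifts. At 6 h vs 2 h the count was 1 in the test against a fold of 2. Leaving out 1 library gave 1 to 2, 1 to 2 and 3 to 4 members called in the 3 comparisons. The other pathway genes called numbered 4 to 6, 2 to 4 and 1 to 6 when a library was left out. For these, the test against a fold of 2 gave 0, 0 and 1, log2(TPM + 1) gave 1, 0 and 1, edgeR gave 4 at 6 h vs 0 h, and 6 h vs 2 h gave 2 with only the libraries compared, 7 with GC correction and 2 with log2(TPM + 0.1). Effective length calls stayed at 0 members. The causes of these shifts were not tested. The sign changes were all in reported fold changes of 0.14 or less in size. At 6 h vs 0 h, Inhba was -0.18 with library totals, -0.10 with log2(TPM + 1) and -0.11 with log2(TPM + 0.1), and Inhbb -0.02 with edgeR, -0.02 with TMM factors, -0.23 with library totals, -0.14 with log2(TPM + 1) and -0.16 with log2(TPM + 0.1), and leaving out 1 library gave -0.08 (0 h replicate 2) to 0.13 for Inhbb, -0.00 without 6 h replicate 1 among them. Acvr2b at 6 h vs 0 h was 0.06 with GC correction, 0.04 with the block and GC correction, 0.08 without 0 h replicate 1, and -0.37 to 0.20 over the 6 libraries left out in turn, the highest without 6 h replicate 1. Acvr2a at 6 h vs 2 h was -0.23 with GC correction, -0.23 with the block and GC correction and -0.16 (without 2 h replicate 2) to 0.55 when a library was left out. At 2 h vs 0 h, leaving out a library gave -0.06 to 0.00 for Fst and -0.15 to 0.02 for Fstl4, the highest without 0 h replicate 2 and 0 h replicate 1.

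The replicate numbers recur in each group, but the labels do not say that they pair the libraries. With a replicate block, 2, 2 and 4 members and 8, 2 and 3 other pathway genes were called. The correlation of same-numbered deviations was 0.281, -0.002 and 0.152 in the 3 comparisons, and 0.114, -0.063 and 0.041 after GC correction.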

Other observations

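Acvr1c, whose mRNA was the lowest of the 10 genes at 0 h, had an effective length that varied between replicates. The lengths were 8860 and 6248 bases before KCl, 8238 and 5404 after 2 h, and 6132 and 5650 after 6 h. In the 0 h and 2 h groups the replicates differed by more than the group means did. Its log2 ratio between 6 h and 0 h was -0.34 (limma adjusted p 0.470, SE 0.29). TPM divides by this length, so the TPM of Acvr1c carries that spread. Acvr2a had effective lengths of 5155 and 4280 bases in the 2 h libraries, where its counts also lay apart.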
